A study of Mus musculus with 10 samples.

Results

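The genes described here encode mouse carbonic anhydrases, which were followed across 3 regions of the heart, namely the septum and the parts labelled right ventricle (RV) and left ventricle (LV). The members were 10 listed genes (Car1, Car2, Car3, Car4, Car5b, Car8, Car9, Car11, Car13 and Car14), taken by matching the RefSeq accession of each array probe to its gene symbol. Of the 10 genes, 9 were matched by 13 probes, among 22911 genes that the array probes named in this way. Car5b, a mitochondrial carbonic anhydrase, was matched by no probe and was not analysed here. The family was chosen by its regional levels on these arrays, that of Car3 above all, so every regional value of a member is given as a description and without a p-value.

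The tissue came from untreated C57BL/6N mice, and no allele, operation or drug set the groups apart. There were 10 arrays (4 of the RV and 3 each of the LV and the septum), each hybridised with Cy3-labelled cRNA of 1 region, and the series' design text states that each experiment used different individuals. Age and sex of these mice are not given in the sources used here. The arrays lay on 2 slides. Replicates numbered 1 and 2 were on slide 1 for each region, and those numbered 3 and 4 were on slide 2.

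Carbonic anhydrases catalyse the reversible hydration of carbon dioxide to bicarbonate and a proton. The cytosolic forms work inside the cell, the membrane-bound forms turn their active site to the outside and serve the bicarbonate and acid transporters of the plasma membrane, and a few family proteins, such as those of Car8 and Car11, lack the catalytic activity. In heart muscle the enzymes are known for handling the carbon dioxide and acid that contraction produces, while the low-activity cytosolic enzyme of Car3 is known above all from fat and slow skeletal muscle.

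A level is given here as the log2 processed signal of a probe minus the 75th percentile of all non-control probes on the same array, so that 0 marks the 75th percentile. A probe was tested when it lay well above background, by the scanner software's flag, on every array of at least 1 region. This held for 30234 of 56605 probes. By array, 53.7% to 64.0% of the non-control spots passed that flag, and no spot was saturated. Levels of different genes come from different probes and are not compared with each other. With 3 or 4 arrays per region, the number of arrays limits the precision. All 8 cardiomyocyte marker genes were tested and 0 passed the threshold in limma (adjusted p under 0.05), with 3 at an unadjusted p under 0.05 between RV and LV and 1 between RV and septum. Of 6 mesothelial markers, 5 were higher in the RV than in the septum, beside 1.2% of all probes. Among these 5, Lrrn4 was well above background on 7 arrays and Upk3b, Upk1b and Krt19 on 9 each. Summed linear levels of the mesothelial list were 7.51 to 21.9 in the RV, 4.42 to 7.18 in the LV and 1.41 to 3.04 in the septum. Genes of the atrial myocardium averaged higher in the septum than in the RV, with 3 of 4 listed genes tested, a median RV minus septum difference of -1.80, and 0 past the threshold, adjusted or unadjusted. The part of either in the values below was not tested.

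The 8 listed genes whose brightest probe was tested separated into 1 gene with a wide regional range and 7 with narrow ranges. Car3 had region means that spanned 4.93 on the log2 scale. The next widest ranges were 0.27 for Car2, 0.21 for Car9, 0.17 for Car4 and 0.14 for Car8. Car14, Car1 and Car11 spanned 0.12, 0.07 and 0.06. The threshold was an adjusted p under 0.05 in limma over all 30234 probes, and between RV and LV 1 of the 8 members (Car3) passed it, where 3.86% of all probes did. Between RV and septum 1 of 8 (Car3) passed, against 2.08% of all probes. Between septum and LV 0 of 8 passed, against 0.0% of all probes in limma, while 862 probes and 1 member (Car3) had an unadjusted p under 0.05. The RV arrays enter both RV comparisons, which are therefore not independent of each other. Since the members were chosen with these contrasts known, nothing is read from the counts.

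**Figure D1:**
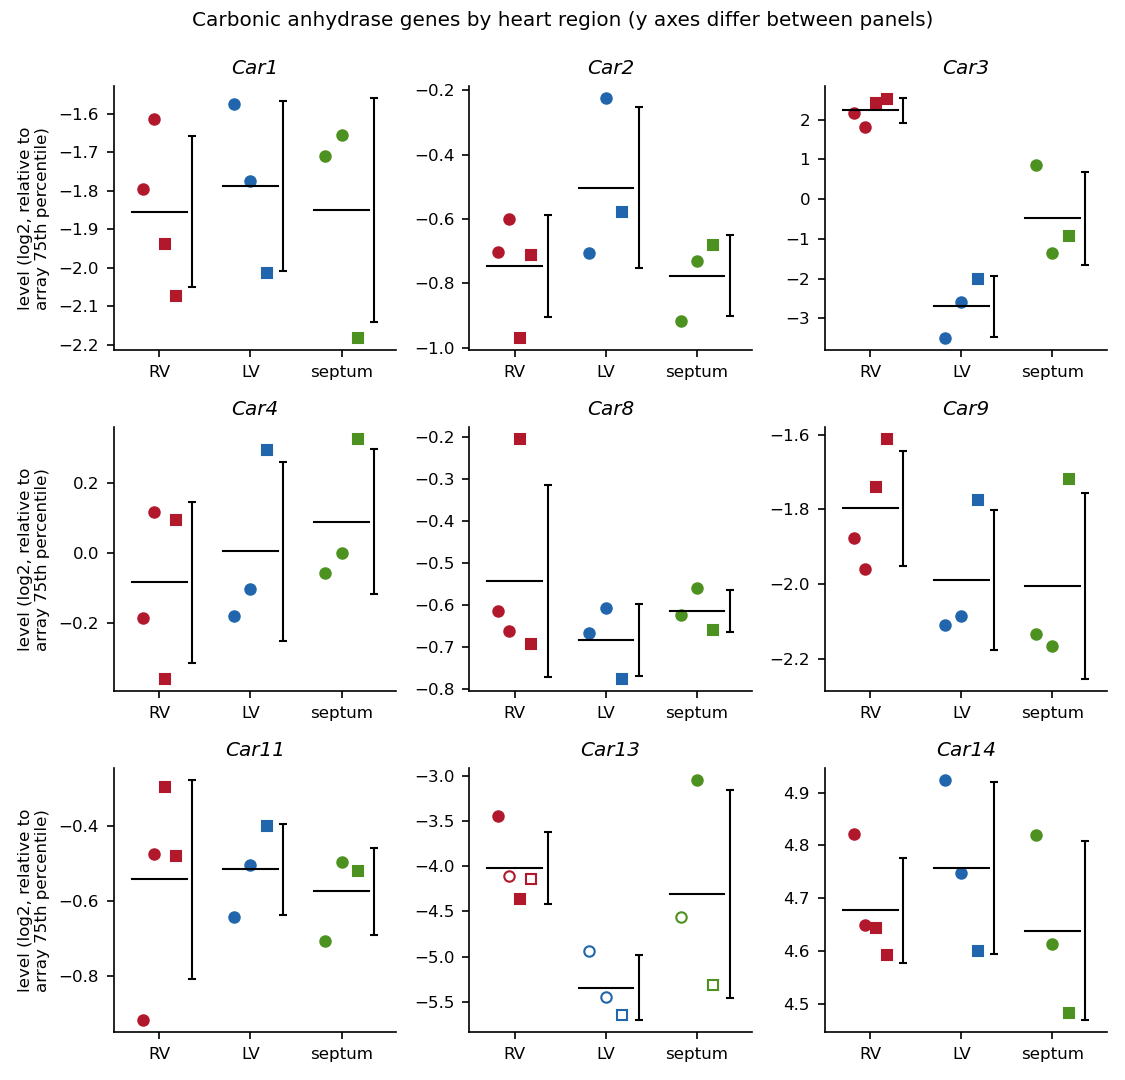
Levels of the 9 measured carbonic anhydrase genes by region, 1 panel per gene with its own y axis (log2, relative to the array's 75th percentile). Each point is an array, circles are slide 1 and squares slide 2, open points were not well above background, horizontal lines are region means and bars show ± SD (n = 4 RV, 3 LV and 3 septum). Car3 levels do not overlap between the regions, whereas those of Car1, Car2, Car4, Car8, Car9, Car11 and Car14 do. How many of all probes part the regions in this way was not counted, and the family was chosen by the levels of Car3.

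Car3 encodes a cytosolic enzyme with little hydratase activity that also takes part in protection against oxidants. Its levels on the 4 RV arrays were 2.17, 1.82, 2.41 and 2.53. On the 3 LV arrays they were -3.51, -2.60 and -2.01, and on the 3 septum arrays 0.85, -1.37 and -0.92. The RV arrays were the highest, the LV arrays the lowest and the septum arrays lay between them, with no overlap between any pair of regions. The region means were 2.23 ± 0.31 (SD, n = 4) in the RV, -0.48 ± 1.17 (SD, n = 3) in the septum and -2.70 ± 0.76 (SD, n = 3) in the LV. The probe was well above background on all 10 arrays, the lowest LV array included.

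The RV mean of Car3 exceeded the LV mean by 4.93 ± 0.51 (SE), a ratio of 30.6-fold with a 95% interval of 13.8 to 67.7. The RV mean exceeded the septum mean by 2.71 ± 0.51 (SE), or 6.54-fold with an interval of 2.95 to 14.5. The septum mean exceeded the LV mean by 2.23 ± 0.55 (SE), or 4.68-fold with an interval of 2.0 to 10.9. The septum stood near the middle of the log2 distance between the ventricles. With the slide as a block the RV minus LV difference was 4.88 and the RV minus septum difference 2.66. Within slide 1 they were 5.05 and 2.25, and within slide 2, where the LV and the septum have 1 array each, 4.47 and 3.39. Blocking on the replicate number gave a Car3 difference of 2.61 between RV and septum that no longer passed the threshold, whereas the 4.83 between RV and LV did.

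The spread of Car3 between replicates differed by region. The highest and lowest RV arrays were 1.64-fold apart, the LV arrays 2.83-fold and the septum arrays 4.64-fold. Septum replicate 1 lay at 0.85, above the other two by more than the full range of the RV arrays. The RV minus septum call was lost when any of RV replicates 1 to 4, LV replicate 2 or septum replicates 2 and 3 was left out, with differences of 2.27 to 2.85. Without septum replicate 2, the lowest of the septum arrays, the RV minus septum difference was 2.27, and without septum replicate 1, the highest, it was 3.37.

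Car2 encodes the high-activity cytosolic enzyme found in red cells and many epithelia. Its levels were -0.70, -0.60, -0.97 and -0.71 in the RV, -0.71, -0.22 and -0.58 in the LV and -0.92, -0.73 and -0.68 in the septum. LV replicate 2 was the highest array and the 3 regions overlapped. Car2 differed by -0.24 ± 0.13 (SE; RV minus LV), and the septum minus LV difference was -0.27 ± 0.14 (SE), the widest of the 7 members other than Car3 in either comparison.

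Car1 encodes a cytosolic enzyme abundant in red cells. Its brighter probe read -1.79, -1.61, -1.94 and -2.07 in the RV, -1.57, -1.77 and -2.01 in the LV and -1.71, -1.65 and -2.18 in the septum. The regions overlapped, and the RV minus LV difference was -0.07 ± 0.16 (SE). A dimmer Car1 probe was well above background on none of the 10 arrays. Of 10 erythroid markers, 8 had a probe and 6 were tested, of which 0 passed the threshold in limma in any comparison and 0 had an unadjusted p under 0.05.

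Car13, another cytosolic enzyme, was the only measured member whose probe was not tested. It was well above background on 2 of 4 RV arrays, 0 of 3 LV arrays and 1 of 3 septum arrays. Its readings were -3.45, -4.11, -4.37 and -4.14 in the RV, -4.94, -5.45 and -5.64 in the LV and -4.56, -3.04 and -5.31 in the septum. The RV readings all lay above the LV readings. No fold is given, because the RV mean of -4.02 lies below -3.76, the mean over the LV arrays of the lowest level counted as well above background. Car13, Car1, Car3 and Car2 follow one another on mouse chromosome 3 with no other protein-coding gene between them in the RefSeq annotation of GRCm38.p6. Of the 3 that were tested, Car3 passed the threshold between RV and LV and Car1 and Car2 did not. The family was chosen by the levels of Car3, so nothing is read from this contrast.

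Car14 encodes a membrane-spanning enzyme of heart and skeletal muscle. Its brighter probe read 4.82, 4.65, 4.64 and 4.59 in the RV, 4.92, 4.75 and 4.60 in the LV and 4.82, 4.61 and 4.48 in the septum. The 10 arrays lay within a narrow band and the regions overlapped. For Car14 the RV minus LV difference was -0.08 ± 0.11 (SE) and the RV minus septum difference 0.04 ± 0.11 (SE). A second Car14 probe gave -0.17 ± 0.18 (SE) and -0.08 ± 0.18 (SE), and neither probe passed the threshold.

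Car4 encodes an enzyme tethered to the outer cell surface by a lipid anchor, known from capillary endothelium and heart muscle membranes. It read -0.19, 0.12, -0.36 and 0.09 in the RV, -0.18, -0.10 and 0.29 in the LV and -0.06, 0.00 and 0.32 in the septum. The lowest reading was that of RV replicate 3 and the highest that of septum replicate 3, and the regions overlapped. The RV minus septum difference was -0.17 ± 0.16 (SE). None of the 9 endothelial markers passed the threshold between regions in limma, with 2 at an unadjusted p under 0.05 between RV and LV and 2 between RV and septum.

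Car9 encodes a membrane-spanning enzyme with an external active site whose gene is a classical target of hypoxia-inducible factor. That factor binds a short core sequence in the promoters it activates. The 60 bases before the Car9 start site hold this core, and they are shown because Car9 is the member whose promoter is best known for it. The stretch is chr4:43506966-43507025 of GRCm38.p6, plus strand, from RefSeq, with the core in capitals as CACGT, which reads ACGTG on the other strand.
Car9 promoter: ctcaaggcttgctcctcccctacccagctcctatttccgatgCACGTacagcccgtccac
The core ends 13 bases before the start site. ACGTG, searched on both strands, occurs in 6447 of 32851 RefSeq promoter windows of 300 bases (19.6%), so a match is a description and not a binding site. The promoter table held windows for 5 listed members, and those of Car4, Car9 and Car14 hold the core while those of Car5b and Car11 do not.

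The brighter Car9 probe read -1.88, -1.96, -1.74 and -1.61 in the RV, -2.11, -2.09 and -1.77 in the LV and -2.13, -2.17 and -1.72 in the septum. The RV arrays of slide 1 lay above the LV and septum arrays of slide 1, and on slide 2 the RV readings lay on either side of that of the septum. At this probe the RV minus LV difference was 0.19 ± 0.14 (SE) and the RV minus septum difference 0.21 ± 0.14 (SE). With the slide as a block they were 0.14 ± 0.06 (SE) and 0.16 ± 0.06 (SE), and neither passed the threshold.

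A second, dimmer Car9 probe was well above background on all 4 RV arrays, on 1 of 3 LV arrays and on 1 of 3 septum arrays. It read -3.11, -3.06, -3.78 and -3.41 in the RV, -3.92, -3.49 and -4.28 in the LV and -3.83, -3.89 and -4.96 in the septum. The RV readings lay above all septum readings, while RV replicate 3 lay below LV replicate 2. For this dimmer probe the RV minus LV difference was 0.56 ± 0.30 (SE) and the RV minus septum difference 0.89 ± 0.30 (SE), and neither passed the threshold. The probe entered the tests through the RV alone, and both differences rest in part on readings not well above background. They were 0.67 and 1.0 with the slide as a block and 0.58 and 0.91 when blocked on the replicate number, and on these readings both were past the threshold under either block. Under the slide block 17.6% of all probes passed between RV and LV and 8.74% between RV and septum, and under the replicate block 14.9% and 7.12%.

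Car8 and Car11 encode family proteins without catalytic activity, that of Car8 being known as a partner of the inositol trisphosphate receptor. Car8 read -0.61, -0.66, -0.20 and -0.69 in the RV, -0.67, -0.61 and -0.78 in the LV and -0.62, -0.56 and -0.66 in the septum. RV replicate 3 stood above the 9 other arrays, which lay close together. The RV minus LV difference of Car8 was 0.14 ± 0.12 (SE) at its brighter probe and -0.11 ± 0.17 (SE) at a second probe, so the 2 probes differed in sign and neither passed the threshold. Car11 read -0.92, -0.48, -0.30 and -0.48 in the RV, -0.64, -0.50 and -0.40 in the LV and -0.71, -0.50 and -0.52 in the septum. The regions overlapped, with both the lowest and the highest Car11 reading in the RV, and the RV minus LV difference was -0.03 ± 0.14 (SE).

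**Figure D2:**
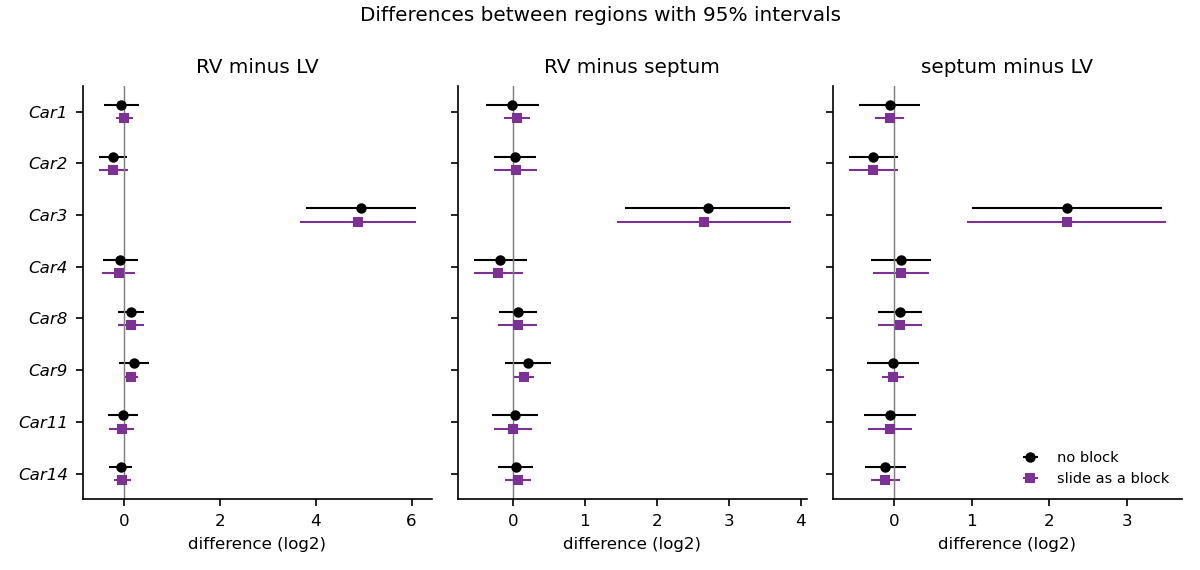
Differences between region means (log2) of the 8 tested members in 3 comparisons, without a block (black circles) and with the slide as a block (purple squares). Bars are 95% intervals. The Car3 differences of 4.93, 2.71 and 2.23 without a block stand apart from those of the other 7 genes, the widest of which is -0.27. The 3 panels have their own x scales.

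The median size of the difference between RV and LV, regardless of sign, was 0.11 over the 8 members and 0.14 over all 30234 probes. Between RV and septum it was 0.05 over the members and 0.12 over all probes, and between septum and LV 0.08 and 0.07. For the 7 members other than Car3, the 95% intervals of the RV minus LV difference ran from -0.54 to 0.51. The corresponding intervals ran from -0.54 to 0.52 between RV and septum and from -0.59 to 0.47 between septum and LV. Differences of up to about 1.5-fold in either direction (1.51-fold at the widest) are thus within these intervals, and the values do not show that the 7 genes were expressed alike in the regions.

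Car1 and Car9 parted by slide. Car1 read -1.79 to -1.57 on the 6 arrays of slide 1 and -2.18 to -1.94 on the 4 arrays of slide 2. Car9 read -2.17 to -1.88 on slide 1 and -1.77 to -1.61 on slide 2. Neither gene overlapped between the slides, and they differed in opposite directions, by -0.37 for Car1 and 0.34 for Car9 (slide 2 minus slide 1). These shifts were wider than any regional difference of either gene at its brighter probe. The other 6 tested members overlapped between slides. How many of all probes part by slide was not counted, so the values of Car1 and Car9 are a description and not a trait of these genes. Slide 2 held 2 RV arrays but 1 of each other region, so the slide is not balanced over the regions.

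**Figure D3:**
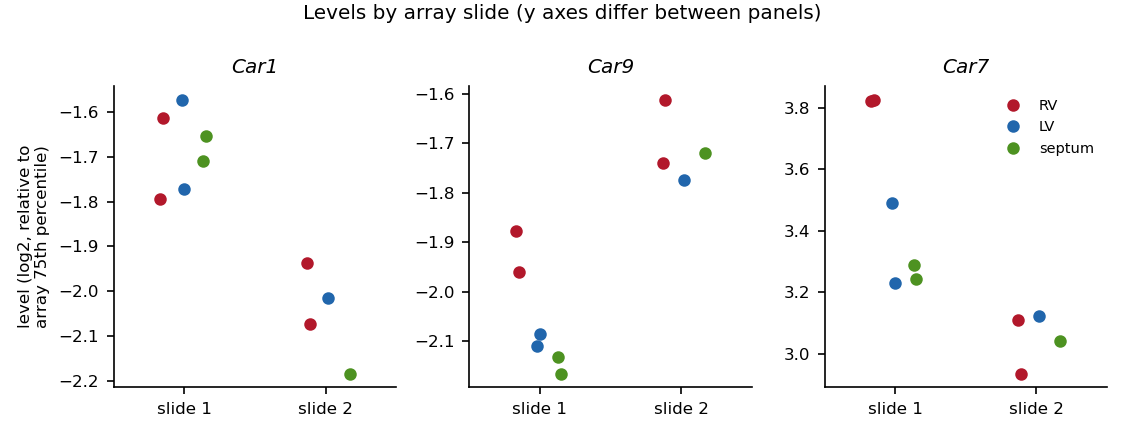
Levels of Car1, Car9 and Car7 (log2, relative to the array's 75th percentile) on the 6 arrays of slide 1 and the 4 arrays of slide 2, coloured by region, with a separate y axis per gene. Every slide 2 array lies below every slide 1 array for Car1 and Car7, and above for Car9.

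Outside the 10 listed genes, 6 further family genes had probes: Car5a, Car6, Car7, Car10, Car12 and Car15. Car7, a cytosolic enzyme known from brain and muscle, was well above background on all arrays. It read 3.82, 3.83, 3.11 and 2.93 in the RV, 3.49, 3.23 and 3.12 in the LV and 3.29, 3.24 and 3.04 in the septum. The highest and the lowest Car7 readings were both RV arrays, and the lower ones came from slide 2. Its RV minus LV difference was 0.14 ± 0.22 (SE; adjusted p = 0.785 in limma) and its RV minus septum difference 0.23 ± 0.22 (SE; adjusted p = 0.729 in limma).

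Car15, which encodes a lipid-anchored enzyme of mice, was also well above background on all arrays. Its RV minus septum difference was -0.16 ± 0.10 (SE; adjusted p = 0.527 in limma), and its RV and LV means were -0.50 and -0.50. The probes of Car5a, Car6, Car10 and Car12 were well above background on none of the 10 arrays. Car5a is known as the mitochondrial enzyme of liver, Car6 as a secreted enzyme of saliva and Car12 as a membrane-spanning enzyme of epithelia.

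To place Car3 among the other genes, its level was correlated with that of 14616 tested genes over the 10 arrays, which share slides and regions. The 5 genes with the highest Pearson r were Cidec (0.994), Hp (0.993), Cfd (0.992), Adipoq (0.990) and Sfxn3 (0.981). Cidec encodes a lipid-droplet protein of fat cells, Adipoq the hormone adiponectin, Cfd complement factor D (adipsin) and Hp the haemoglobin-binding protein haptoglobin. With each region's mean removed, the highest values were those of Cfd (0.956), Cidec (0.943), Pon1 (0.943), Tmem45b (0.937) and Hp (0.936), so that Cfd, Cidec and Hp were among the 5 by both measures. Sfxn3 had a far smaller range than Car3, with an RV minus LV difference of 0.36.

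Array by array, Cidec read 2.31, 1.58, 1.87 and 2.49 in the RV, -2.95, -2.18 and -1.39 in the LV and 0.86, -0.71 and -0.54 in the septum. Adipoq read 0.40, -0.41, -0.04 and 0.45 in the RV, -5.89, -4.31 and -3.81 in the LV and -1.02, -2.80 and -2.92 in the septum. As with Car3, the RV arrays were highest and the LV arrays lowest for both genes, LV replicate 1 was the lowest of all, and septum replicate 1 stood above the other two septum arrays. Adipoq was well above background on none of the 3 LV arrays. Cidec and Adipoq had the highest r with Car3 of the 8 tested adipocyte markers, whose list is described below. For the others r over the arrays was 0.959 (Retn), 0.955 (Plin1), 0.178 (Lipe), -0.252 (Adig), -0.515 (Pparg) and -0.592 (Lep). With region means removed these were, in the same order, 0.743, 0.567, -0.129, 0.321, -0.117 and -0.500. The list as a whole thus did not follow Car3.

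**Figure D4:**
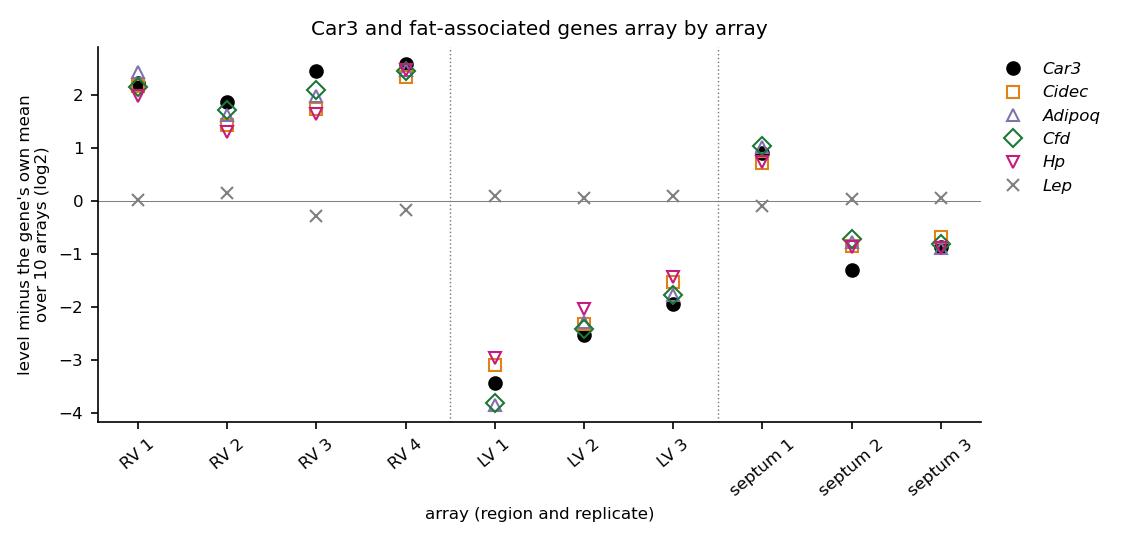
Levels of Car3 and of Cidec, Adipoq, Cfd, Hp and Lep on each of the 10 arrays, each gene shown as the deviation from its own mean (log2). Dotted lines part the regions. The first 5 genes move together, highest on the 4 RV arrays and lowest on LV replicate 1, while Lep stays near 0.

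Car3 is a gene that fat cells express strongly, and the adipocyte marker list gave the values that stand beside its own. Of 9 markers, 8 were tested, and 4 were higher in the RV than in the LV, beside 2.31% of all probes: Adipoq, Plin1, Cidec and Retn. Cidec rose by 4.24 ± 0.45 (SE; adjusted p = 0.00307 in limma) and Retn, which encodes resistin, by 3.26 ± 0.48 (SE; adjusted p = 0.00806). Set against the lowest signal of any probe counted as well above background on each LV array, Adipoq was higher by 14.5-fold. Plin1, which encodes the lipid-droplet protein perilipin, was higher by 4.34-fold in the same way. That floor was used because neither probe was well above background on any LV array. A probe can lie above the floor and still fail the flag, and these folds compare means without a sampling error, so they are not strict limits. No test was run on them. The adjusted p of 0.00377 (limma) of each gene belongs to its measured difference, 4.77 for Adipoq and 3.43 for Plin1. Those differences rest on LV readings not well above background, and Plin1 entered the tests through the RV alone.

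Against the septum, 2 of the 8 adipocyte markers passed the threshold, both higher in the RV, beside 1.2% of all probes. They were Cidec, higher by 2.19 ± 0.45 (SE; adjusted p = 0.0432 in limma), and Plin1, with a difference of 2.10 ± 0.40 (SE; adjusted p = 0.0326). Plin1 was well above background on 1 of 3 septum arrays and entered the tests through the RV, so that its difference rests in part on readings not well above background. Both calls were lost when any of RV replicates 1 to 4, LV replicate 2 or septum replicates 2 and 3 was left out, and that of Plin1 also without LV replicate 1. With the replicate number as a block Plin1 passed and Cidec did not. Lep, Adig, Pparg and Lipe did not pass in either comparison, with RV minus LV differences of -0.15, -0.12, -0.19 and 0.14. Over all 9 markers the summed linear level was 10.7 to 14.5 in the RV, 5.73 to 7.34 in the LV and 7.39 to 8.93 in the septum. The ranges did not overlap, though those of the LV and the septum nearly met. In bulk tissue, fewer cells of a type and less RNA per cell cannot be told apart, and the part of adipocyte RNA in the Car3 differences was not tested.

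Car3 is also known from slow skeletal muscle, and of 10 skeletal muscle markers, most of them of fast fibres, 6 were tested. Between RV and LV 0 of the 6 passed the threshold in limma, with 0 at an unadjusted p under 0.05, and their median difference was 0.06. Between RV and septum, Pvalb, which encodes the calcium buffer parvalbumin, was lower in the RV by the largest difference of the list, at -1.83 ± 0.17 (SE; adjusted p = 0.00151 in limma), 1 of the 6 and beside 0.873% of all probes lower. Myh1 was well above background on no array. Summed linear levels of the list were 387 to 537 in the RV, 377 to 572 in the LV and 367 to 572 in the septum. These ranges overlapped.

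Of 5 brown fat markers, 3 were tested. Ucp1, the defining gene of brown fat, was well above background on no array, and 0 of the 3 tested passed the threshold in limma in any comparison. At an unadjusted p under 0.05 there was 1 between RV and LV, 0 between RV and septum and 1 between septum and LV.

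The same likeness was computed for Car2 and Car9, the members with the next widest range of region means. For Car2 the 5 genes were Fbxl6 (0.932), Gm4710 (0.915), Hnrnph2 (0.912), Atp6v0b (0.910) and Tango6 (0.894), and with region means removed Thap6 (0.950), Wipf3 (0.936), Pla2g6 (0.929), Gm4710 (0.921) and Gm14488 (0.919). For Car9 they were Ybx1 (0.972), Tspan18 (0.967), Cbx7 (0.966), Snx33 (0.965) and Ptar1 (0.965), and with region means removed Cd274 (0.994), Svil (0.990), Prpf40b (0.989), Drp2 (0.989) and Fkbp5 (0.989). None of these genes is on the list of Car3. Among the members themselves, Car1 and Car9 had r = -0.87 over the 10 arrays and -0.97 with region means removed, the pair that also parted the slides. Car3 had r between -0.51 (with Car2) and 0.49 (with Car9) with the other tested members.

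Bicarbonate and protons made by carbonic anhydrases leave and enter cells through transporters, and 32 such genes were listed, of which 22 were tested. Between RV and LV 2 of the 22 were higher in the RV and 0 were lower, beside 2.31% of all probes higher and 1.55% lower, and the same 2 were higher in the RV than in the septum, beside 1.2% of all probes. They were Emb and Slc9a2. The median difference over the list was -0.03 between RV and LV, beside -0.04 over all probes. The widest difference that did not pass was that of Slc9a3, another sodium-proton exchanger, which was singled out after its values were seen. It was well above background on 4 arrays only, so its differences rest in part on readings not well above background. The RV minus septum difference was -1.73 ± 0.56 (SE; adjusted p = 0.190 in limma). Slc9a3 passed as lower in the RV than in the septum with the slide as a block. On slide 1 alone it passed as lower in the RV than in both other regions, and on slide 2 alone it passed in neither comparison.

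Emb encodes embigin, a membrane glycoprotein that accompanies monocarboxylate transporters to the cell surface. It read -1.14, -0.96, -0.52 and -0.96 in the RV, -2.75, -2.92 and -3.12 in the LV and -2.03, -3.07 and -2.96 in the septum. The RV arrays lay above all others, and septum replicate 1 was the next highest. Emb differed between RV and LV by 2.03 ± 0.25 (SE; adjusted p = 0.00377 in limma) and between RV and septum by 1.79 ± 0.25 (SE; adjusted p = 0.00956). Without septum replicate 2 the latter was 1.60 and lost the threshold (adjusted p = 0.0513). Within slide 1 the differences were 1.78 and 1.5, and neither passed in limma (adjusted p = 0.0620 and 0.116). Within slide 2 they were 2.38 and 2.22, of which the RV minus septum difference did not pass (adjusted p = 0.0429 and 0.0516). The RV minus septum call was also lost under the analysis of variance with Tukey correction. With normexp background correction both calls held, at lower differences of 1.24 and 1.18.

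Slc9a2 encodes a sodium-proton exchanger. It read -1.81, -1.83, -2.07 and -1.74 in the RV, -2.28, -2.50 and -2.67 in the LV and -2.99, -3.19 and -2.96 in the septum. The 3 regions did not overlap, with the septum lowest, which is not the order seen for Car3. Slc9a2 was higher in the RV than in the septum by 1.18 ± 0.12 (SE; adjusted p = 0.00212 in limma) and higher than in the LV by 0.62 ± 0.12 (SE; adjusted p = 0.0223). The RV minus LV call was lost without RV replicate 1, 2 or 4 and without LV replicate 2 or 3, with differences of 0.53 to 0.61 (adjusted p = 0.0556 to 0.0901). Within slide 1 the RV minus LV and RV minus septum differences were 0.57 and 1.27, and within slide 2 they were 0.76 and 1.05. The RV minus LV difference passed in limma on neither slide (adjusted p = 0.0668 and 0.154), and the RV minus septum difference did not pass on slide 2 (adjusted p = 0.110). The RV minus LV call was also lost without the filter on dim probes (adjusted p = 0.106), with median scaling, with the analysis of variance and with normexp, which gave the lowest difference, 0.34.

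Slc4a2, Slc4a3, Slc4a4 and Slc16a1 were named whatever their values, and none of the 4 passed the threshold in either RV comparison. Slc4a3, the chloride-bicarbonate exchanger of heart muscle, had RV minus LV and RV minus septum differences of -0.15 ± 0.11 (SE) and -0.08 ± 0.11 (SE), and its relative Slc4a2 of -0.02 and -0.05. Slc4a4, a sodium-bicarbonate cotransporter, had differences of 0.03 and 0.17. Slc16a1, a transporter of lactate with a proton, had differences of -0.19 ± 0.08 (SE; adjusted p = 0.218 in limma) and -0.01. With the slide as a block, the Slc16a1 difference of -0.21 between RV and LV passed the threshold (adjusted p = 0.0245). Under that block 7 of the 22 transporters passed between RV and LV, 4 higher and 3 lower, and 4 of 22 between RV and septum, 3 higher and 1 lower, beside 17.6% and 8.74% of all probes.

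Of 10 enzymes that use bicarbonate as a substrate or signal, 9 were tested and 0 passed the threshold in limma in any comparison. An unadjusted p under 0.05 was found for 2 between RV and LV and for 2 between RV and septum. Pcx, which encodes pyruvate carboxylase, had an RV minus LV difference of -0.02 ± 0.11 (SE). With the slide as a block, Acaca was higher and Pcca lower in the RV than in the LV, 2 of the 9 beside 17.6% of all probes. With the replicate number as a block Pcca and Acacb were lower and Acaca did not pass, again 2 of the 9, beside 14.9% of all probes. Between RV and septum the replicate block called Pcca, 1 of the 9 and lower in the RV, beside 7.12% of all probes. Adcy10, which encodes the bicarbonate-stimulated adenylate cyclase, was well above background on no array.

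All 15 listed oxygen-responsive genes, which respond to low oxygen as Car9 does, were tested. Between RV and LV 2 were lower in the RV and 0 were higher, beside 1.55% of all probes lower and 2.31% higher. The median difference was -0.23, beside -0.04 over all probes. Pdk1, a kinase that holds back pyruvate oxidation, read 2.61, 2.56, 2.62 and 2.64 in the RV, 3.16, 3.05 and 3.03 in the LV and 3.03, 3.0 and 2.91 in the septum. The RV arrays lay below all others. The RV minus LV difference of Pdk1 was -0.47 ± 0.07 (SE; adjusted p = 0.00744 in limma) and the RV minus septum difference -0.37 ± 0.07 (SE; adjusted p = 0.0294), which made Pdk1 the 1 gene of 15 lower in the RV than in the septum, beside 0.873% of all probes. The RV minus septum call was lost when any of RV replicates 1, 2 and 4, LV replicate 2 or septum replicates 1, 2 and 3 was left out, with differences of -0.40 to -0.35. Without the filter on dim probes both Pdk1 calls were lost (adjusted p = 0.0650 and 0.175 in limma). By brightness, Pdk1 probe 2 passed in both comparisons (-0.51 and -0.52). Probe 3 (-0.37 and -0.32) and probe 4 (-0.24 and -0.26) passed in neither. On slide 2 alone the brightest probe gave differences of -0.40 and -0.28.

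Bnip3, a mitochondrial protein of mitophagy, was lower in the RV than in the LV by -0.66 ± 0.14 (SE; adjusted p = 0.0356 in limma). The call was lost when any of RV replicates 1, 3 and 4, LV replicates 1, 2 and 3 or septum replicate 1 was left out, with differences of -0.72 to -0.55. Other alternatives lost it too, among them no filter on dim probes (adjusted p = 0.142 in limma) and slide 1 alone (-0.56, adjusted p = 0.0866). On slide 2 alone the Bnip3 difference was -0.68. With the slide as a block, 7 of the 15 genes passed between RV and LV, 6 of them lower in the RV, beside 10.4% of all probes lower. Both probes of Car9 read higher in the RV, and neither passed without a block. Of 13 listed oxygen-responsive genes with a promoter in the table, 10 hold ACGTG on either strand, and that of Pdk1 does not.

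**Figure D5:**
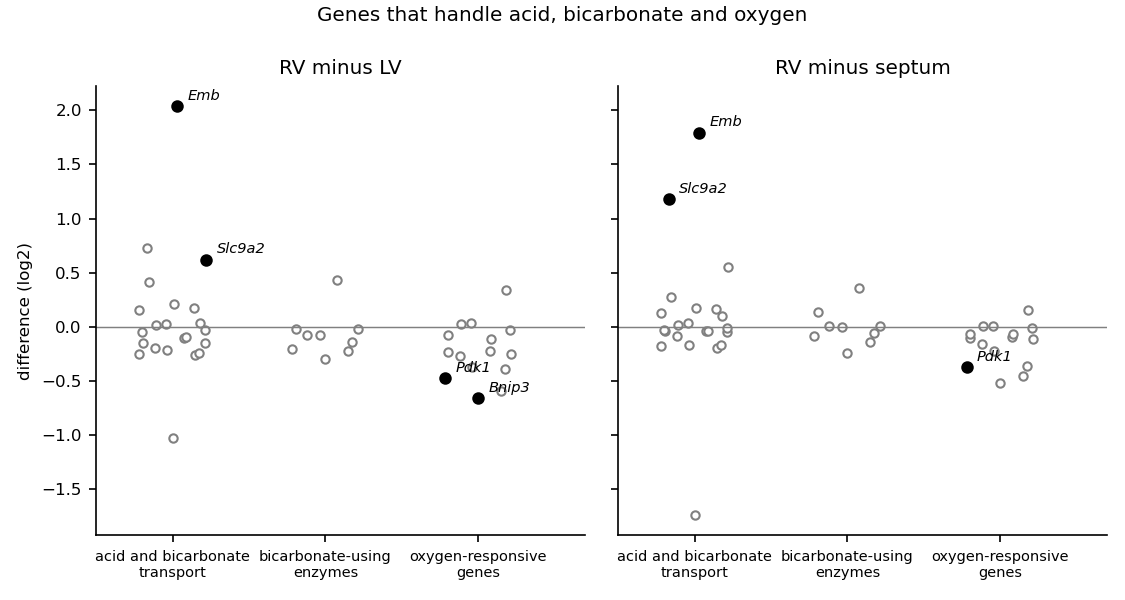
Differences between region means (log2) of the tested genes of 3 lists: 22 of acid and bicarbonate transport, 9 bicarbonate-using enzymes and 15 oxygen-responsive genes, for RV minus LV (left) and RV minus septum (right). Filled points with a name passed the adjusted threshold without a block, open points did not, and horizontal position within a list has no meaning. Emb and Slc9a2 lie above 0 in both panels and Pdk1 below.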

How the data were processed

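The study measured total RNA of mouse RV, LV and septum on Agilent SurePrint mouse arrays with a one-colour low-input kit. The authors deposited the processed intensity of each spot, made with version 11.5.1.1 of Agilent Feature Extraction as named in the deposited headers, with background subtracted and no scaling between arrays. The authors also deposited a log2 table of these arrays, made with GeneSpring. For 100% of the probes compared, its values lay within 0.05 of those computed here once a constant per array was removed, and its 75th percentile lay at 0, so it served as an alternative. The mean signal of a spot is not used here, and the alternative background correction (normexp, offset 50) took the median signals.

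After removal of control spots and of 56 to 128 outlier spots on each array, the log2 processed intensity was averaged per probe, and each array's 75th percentile was subtracted. Tests were run on probes that passed the background flag on all arrays of 1 or more regions (30234 of 56605, 53.4%). Symbols came from unversioned RefSeq accessions and a GRCm38.p6 gene table (32994 probes named), and the brightest probe stood for a gene. The array files carry another genome build, so the only coordinates given are those of the RefSeq promoter.

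limma (version 3.58.1, R 4.3.3) fitted a mean per region to all 10 arrays, with two-sided tests and Benjamini-Hochberg adjustment over all probes tested. The model was run on simulated arrays that varied independently and had no slide effect. That check does not cover the way arrays of one slide deviated together here. Groups and replicate numbers came from the sample titles. Same-numbered arrays of different regions deviated together (correlations of 0.36 to 0.64 over 9 pairs), as did differently numbered arrays of one slide (0.09 to 0.58 over 8 pairs), while arrays of different slides did not (-0.56 to -0.21 over 16 pairs). On slide 1 every same-numbered pair (0.36 or more) correlated more than any differently numbered pair (0.31 or less). On slide 2, RV replicate 4 correlated more with LV and septum replicate 3 (0.57 and 0.58) than RV replicate 3 did (0.43 and 0.44), while LV and septum replicate 3 gave 0.64. The data thus do not settle the pairing by number that the replicate block assumes, and the number is not separable from the slide. Alternatives were other scalings, the authors' table, no filter, slide and replicate blocks, single slides, an analysis of variance with Tukey correction (the methods' test) and leaving out each array.

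The genes named were all members, the unlisted family genes, called genes of the transporter and enzyme lists with a few fixed by symbol (1 of which is not reported here), up to 3 called oxygen-responsive genes per comparison, and the 5 genes most like Car3, Car2 and Car9. The members and lists were chosen with earlier results of these data known. Further marker lists gave these results between RV and LV, beside 2.31% of all probes higher: fibroblast 3 of 5 higher, macrophage 0 of 6, smooth muscle 0 of 5 and Schwann cell 2 of 4 higher. In either direction, 4 fibroblast, 3 macrophage, 4 smooth muscle and 3 Schwann cell markers had an unadjusted p under 0.05 in limma. The median RV minus LV differences were 0.56, 0.31, 1.38 and 0.59. Adjustment was never made over a list alone.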

Additional observations from a re-analysis of the deposited data

Results flagged for a closer look

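The Car8 level of RV replicate 3, -0.20, stood apart from the other 3 RV arrays by 0.84 of the range of the group, above Dixon's 95% critical value for 4 samples. Slc4a3 on the same array, at 5.47, stood below the other 3 RV arrays by 0.90 of the range. Of 29 groups tested in this way 2 exceeded the value, and chance alone gives about 1 in 20. Both readings come from RV replicate 3, and no cause was tested.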

How the results depend on the processing

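The RV minus LV difference of Car3 passed the threshold under every alternative run (4.10 to 5.28), and no called difference changed sign. The RV minus septum difference of Car3 lost it, so that 0 members passed, without the filter (2.71), on slide 1 alone (2.25), with the replicate block that pairs arrays by number (2.61) and in the analysis of variance with Tukey correction (2.71). It ranged from 2.27 to 3.37 as each array was left out, with 0 to 1 members past the threshold. The septum minus LV difference of Car3 fell to 1.09 on slide 2 alone, and 1 member passed in the analysis of variance without adjustment over probes. The transporters and enzymes past the threshold between RV and LV, 2 without a block, numbered 1 with median scaling, normexp, no filter, either slide alone and the analysis of variance, 9 with the slide block, 8 with the slide as a random block, the replicate block and the unadjusted analysis of variance, and 1 to 2 as each array was left out. Between RV and septum, also 2 without a block, they numbered 4 with the slide or replicate block, 0 on slide 2 alone, 1 in the analysis of variance (6 unadjusted) and 1 to 3 as each array was left out, and between septum and LV 1 in the unadjusted analysis of variance. Among the other genes named, the replicate block gave calls to the second Car9 probe, Slc16a1, Pcca and, between RV and septum, Bnip3, and took that of Cidec between RV and septum. Over all probes, calls between RV and LV were 1167 without a block, 5331 with the slide block, 4512 with the replicate block 269 without the filter, 684 with median scaling, 430 in the analysis of variance and 390 to 980 as each array was left out, and between RV and septum 628, 2643, 2154, 112, 467, 129 and 118 to 542. Of the 1167 calls 697 were higher in the RV, against 893 of 1177 when the percentile was taken over probes well above background on all arrays, and of the 628 calls 364 were higher, against 341 of 467 with median scaling. The cause of these changes was not tested. Signal over background limits Car13 and the second Car9 probe, which were measured on some arrays only.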
